A study of Mus musculus with 8 samples.

Results

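The genes described here are 49 homeobox genes outside the Hox clusters that pattern the embryo, of 21951 protein-coding genes in the GENCODE M21 annotation. They were listed by name: 3 Cdx, 5 Dlx, 2 Emx, 2 En, 2 Evx, 2 Gbx, 4 Irx, 8 LIM-homeobox (Isl, Lhx and Lmx), 1 Mnx, 2 Msx, 5 Nkx, 2 Otx, 5 Pax, 1 Phox, 1 Pitx and 1 Vax gene and Six2, Six3 and Six6, and all of them were found in the annotation. A gene was counted as bound in a library when a peak of that library overlapped by at least 20 bp the positions within 1000 bp of any of its annotated transcript starts. The genes were not chosen by their peaks, but the list was drawn up with earlier results of these data in view.

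Homeobox genes typically encode transcription factors with a homeodomain, a fold that often reads short AT-rich DNA words. The Hox genes set position along the trunk, whereas the genes treated here divide the early neural plate, the head, the limb and the heart into territories and then choose cell types within them. Retinoic acid (RA) is a natural signal for the hindbrain and spinal cord and is used in culture to turn embryonic stem cells towards neural fates, so these regulators are among the genes whose control is of interest in that transition. In pluripotent cells most of them are known to be silent or nearly so, with their CpG-rich starts covered by Polycomb repressive complexes.

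Chromatin immunoprecipitation with sequencing (ChIP-seq) had been done on E14Tg2a, a line of mouse embryonic stem cells, between passages 37 and 40. Pluripotent cultures (ESCs) received leukemia inhibitory factor (LIF). Neuronal cells (NCs) were monolayers without LIF that had received 1 µM RA for 48 h. Both states were grown with serum, and cells of several plates were pooled before each precipitation. The targets were FGFR1, a growth factor receptor that also occurs in the nucleus, the nuclear receptors RXR (RXRα in the sample titles) and Nur77, and H3.3, a histone variant placed in chromatin outside DNA replication. FGFR1 in NCs had 2 libraries, the second titled as another experiment, and FGFR1 in ESCs, RXR and Nur77 in each state and H3.3 in NCs had 1 library each. No test between the states was therefore made: with 1 library against 2, the smallest one-sided p that an exact permutation test could give was 0.333. A library pools many cells, so fewer cells with a protein at a site and less of it per cell cannot be told apart. A ChIP-seq list holds no expression level, so neither cell state was checked here by its marker genes.

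The 8 lists differed in size and depth. They held from 10634 peaks (H3.3) to 46137 peaks (FGFR1 in NCs, replicate 1), and the background density inferred from the peak values lay between 1.27 and 7.09 fragments per kb. FGFR1 in ESCs, with 11378 peaks, had 2.71 fragments per kb, against 4.16 in replicate 1 and 6.78 in replicate 2 in NCs. The median number of fragments at a summit was 27 in replicate 2 and from 9 to 12 in the other libraries. Each peak carried a fold, which is the pileup at its summit plus 1 over the local background plus 1, and a −log10 p. A gene without a peak is one where no pileup passed the authors' p limit of 1e-05 at that depth, which took at least 4 to 8 fragments depending on the library.

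Peaks lay at the starts of 32 of the 49 genes in at least 1 library, or 65.3%, and of 65.5% of all protein-coding genes. Per library, however, the share of homeobox genes with a peak was lower than that of all genes. FGFR1 in ESCs lay at 1 of the 49 (2.04%), against 17.0% of all genes. In NCs it lay at 19 (38.8%) in replicate 1 and 8 (16.3%) in replicate 2, where all genes stood at 50.7% and 49.6%. RXR lay at 7 of the 49 (14.3%) in ESCs and at 7 in NCs, with 42.5% and 23.3% of all genes. Nur77 lay at 8 (16.3%) in ESCs and 11 (22.4%) in NCs beside 25.5% and 25.8%, and the NC value came closest to its background. H3.3 in NCs lay at 5 (10.2%) beside 15.5%. In percentage points the margin was widest in FGFR1 replicate 2, and as a ratio in FGFR1 in ESCs. These are counts from single libraries with no test.

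**Figure D1:**
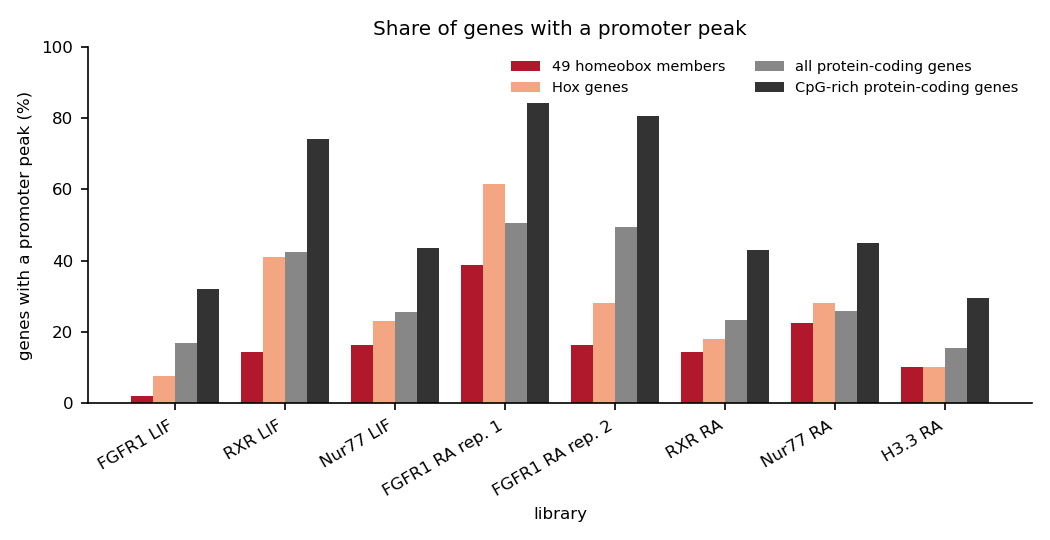
Share of genes with a peak within 1000 bp of a start, in percent, for each of the 8 libraries; bars stand, from left to right, for the 49 homeobox genes (red), the 39 Hox genes (orange), all 21951 protein-coding genes (grey) and the 6726 CpG-rich ones (black). The red bar is shorter than the grey in every library, from 2.04% against 17.0% for FGFR1 in LIF to 22.4% against 25.8% for Nur77 in RA.

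The sequences of 5 FGFR1 peaks in NCs are shown first. They are among those with the highest −log10 p at the 49 genes (Gbx2, Isl1, Isl2 and Lhx1) or coincide with peaks of other proteins (Emx2). Within replicate 2 the Gbx2 and Isl1 peaks were stronger than 39.0% and 33.4% of promoter peaks. They are plus-strand reference sequence from RefSeq's GRCm38.p6 assembly (mm10), 5′ to 3′, with each CG pair in capitals. Stretches in untranslated exons are left out, so the Gbx2, Isl1 and Isl2 entries are parts of their peaks.
Gbx2, FGFR1 RA replicate 2, chr1:89931180-89931419: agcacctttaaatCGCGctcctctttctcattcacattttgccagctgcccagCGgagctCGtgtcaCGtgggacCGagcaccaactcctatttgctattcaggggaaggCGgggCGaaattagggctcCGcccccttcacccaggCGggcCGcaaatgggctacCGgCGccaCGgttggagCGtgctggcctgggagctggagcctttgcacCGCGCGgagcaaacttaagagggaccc
Isl1, FGFR1 RA replicate 2, chr13:116309690-116309946: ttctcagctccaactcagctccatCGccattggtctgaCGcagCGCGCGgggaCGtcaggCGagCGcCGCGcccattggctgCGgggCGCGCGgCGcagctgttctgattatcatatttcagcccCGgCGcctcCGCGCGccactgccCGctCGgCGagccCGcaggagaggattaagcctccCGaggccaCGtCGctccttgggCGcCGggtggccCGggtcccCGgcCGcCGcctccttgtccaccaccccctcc
Lhx1, FGFR1 RA replicate 1, chr11:84525550-84525735: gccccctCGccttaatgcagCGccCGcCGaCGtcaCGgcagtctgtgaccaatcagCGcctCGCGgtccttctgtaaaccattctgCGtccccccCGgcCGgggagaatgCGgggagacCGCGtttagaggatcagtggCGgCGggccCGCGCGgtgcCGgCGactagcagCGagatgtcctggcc
Emx2, FGFR1 RA replicate 1, chr19:59459459-59459552: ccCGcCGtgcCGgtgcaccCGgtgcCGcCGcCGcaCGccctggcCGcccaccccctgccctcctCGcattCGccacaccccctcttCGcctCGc
Isl2, FGFR1 RA replicate 1, chr9:55541088-55541147: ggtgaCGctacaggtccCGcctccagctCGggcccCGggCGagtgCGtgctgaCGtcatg
The CG pair recurs throughout: the printed Isl1 stretch of 257 bp holds 33, and the Lhx1 peak of 186 bp holds 23. The Emx2 peak is the richest of the 5 in G and C, at 79.8%, and lies in coding sequence. The Isl2 stretch carries TGACGTCA, the palindrome bound by CREB and ATF proteins. It was the only member peak of 76 with that word within 100 bp centred on the summit, where 0.950 to 2.15% of all promoter peaks had it, depending on the library.

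Richness in CpG was shared by the whole list. Within 1000 bp of the main start, the 49 genes had a median of 116 CG pairs and 59.2% G and C, against 63 and 51.4% for all protein-coding genes. By a rule of at least 50% G and C and an observed-to-expected CpG ratio of at least 0.6, 35 of the 49 (71.4%) were CpG-rich, beside 30.6% of all genes. Among the 6726 CpG-rich genes of the genome the bound shares were far higher than among all genes, at 84.4% for FGFR1 in NCs replicate 1, 80.7% for replicate 2 and 74.1% for RXR in ESCs. The 35 CpG-rich homeobox genes stood at 42.9%, 17.1% and 17.1% in these libraries. For Nur77 the shares were 25.7% of the 35 and 45.1% of the 6726 in NCs, and for H3.3 they were 11.4% and 29.5%. Set beside genes of like base composition, the homeobox genes were therefore more percentage points below the background than they were beside all genes. They also had fewer annotated starts per gene, with a median of 2 against 3, and the positions searched came to a median of 2805 bp against 4002 bp. Within the list this median was 4002 bp for the 32 genes with a peak in any library and 2139 bp for the 17 with none. Whether the length searched bears on the counts was not tested.

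How many libraries marked the same gene differed as well. Of the 49 genes, 17 had a peak in no library (34.7%, against 34.5% of all genes), 16 in 1 library (32.7% against 10.5%), 4 in 2, 6 in 3 and 6 in 4. None had a peak in 5 or more libraries, whereas 5320 protein-coding genes (24.2%) did. The 6 genes with 4 libraries were Dlx6, Gbx2, Isl1, Lhx1, Lhx2 and Pax5. The share of genes with no peak was thus close to that of all genes, and the shares parted at the number of libraries per bound gene.

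**Figure D2:**
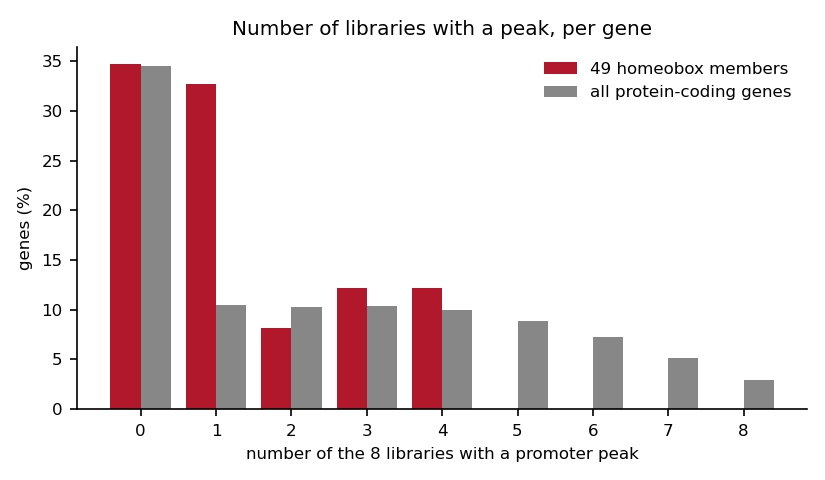
Percent of genes (vertical axis) by the number of the 8 libraries with a promoter peak (horizontal axis), for the 49 homeobox genes in red and all protein-coding genes in grey. The red bars stand above the grey at 1 library (32.7% against 10.5%) and there is none beyond 4 libraries.

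FGFR1 in NCs was the only group with a repeat. Peaks were found in both libraries at 3 genes, Cdx1, Gbx2 and Isl1 (6.12%), where 39.5% of all genes had peaks in both. These 3 genes are 15.8% of the 19 bound in replicate 1 and 37.5% of the 8 bound in replicate 2, while over all genes 77.8% and 79.5% of those bound in either library were bound in the other. At each of the 3 genes a peak of replicate 1 shared bases with a peak of replicate 2, as at 86.8% of all genes bound in both. The other 16 genes of replicate 1 and 5 genes of replicate 2 were seen once.

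The mean over the NC libraries was 13.5 ± 7.78 genes (SD, n = 2), or 12.5 more than in ESCs. The spread between the repeats was large beside that difference, and the counts changed with list length. Over all protein-coding genes the share with FGFR1 also rose, from 17.0% in ESCs to 50.7% and 49.6% in NCs, so a rise was not particular to these genes. When each list was restricted to its 11378 strongest peaks, the number in the ESC list, replicate 1 kept 1 gene (Gbx2, with 18.9% of all genes) and replicate 2 kept 6 (Dlx1, Dlx3, Gbx2, Isl1, Mnx1 and Msx1, with 44.7%). At equal list length replicate 1 in NCs and the ESC library therefore counted the same number.

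**Figure D3:**
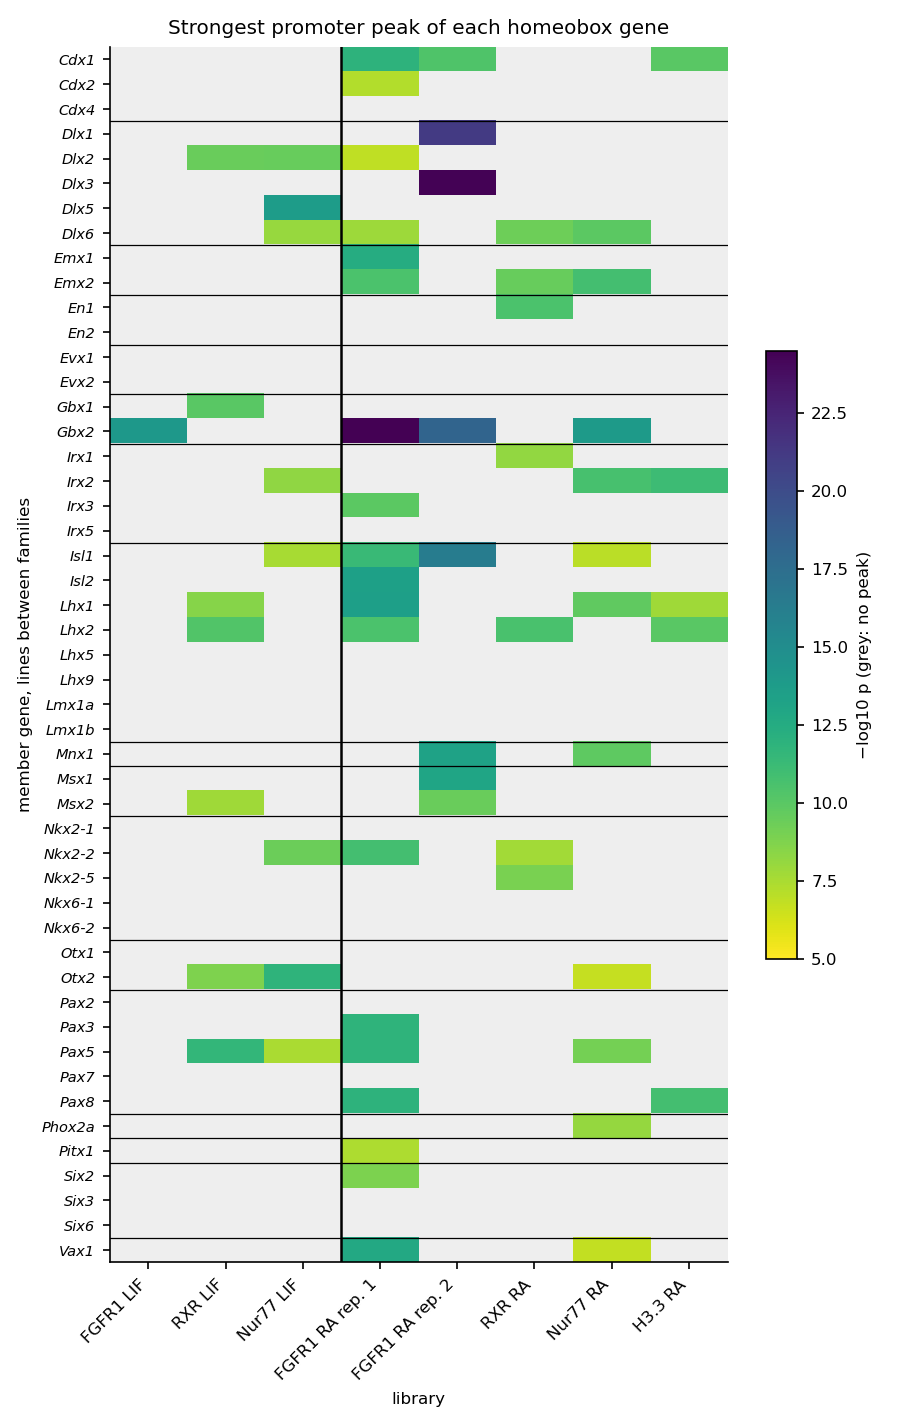
The −log10 p of the strongest promoter peak (color scale) for each of the 49 genes (rows, by family) in the 8 libraries (columns); grey cells had no peak. Gbx2 is the only gene with a mark in the FGFR1 LIF column, and 17 rows are grey throughout.

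Gbx2, which sets the anterior hindbrain side of the midbrain-hindbrain border and is also active in pluripotent cells under LIF, stood apart from the rest. It was the only 1 of the 49 with FGFR1 in ESCs, at chr1:89931046-89931179 with a fold of 8.20, a −log10 p of 14.1 and 15 fragments where the background was 0.95. In NCs the FGFR1 peak of replicate 1, at chr1:89931038-89931157, had a fold of 11.49 and a −log10 p of 24.5, the highest of all 76 member peaks, with 25 fragments. Replicate 2 had a peak at chr1:89931057-89931419 with a fold of 7.17 and a −log10 p of 18.2. Nur77 in NCs lay at chr1:89931016-89931150 with a fold of 7.85 and a −log10 p of 13.9. All 4 peaks shared bases, with summits from 87 bp downstream to 17 bp upstream of the start, and no peak of RXR, of Nur77 in ESCs or of H3.3 was found there. The replicate 1 peak was stronger than 94.9% of promoter peaks in its list and the replicate 2 peak stronger than 39.0%. The noncoding gene D130058E05Rik overlaps the site, and ChIP reads do not tell which of the overlapping genes a peak belongs to.

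The other Gbx gene and the Otx and En genes gave fewer peaks than Gbx2. Gbx1 had RXR in ESCs alone, 868 bp downstream of its start in coding sequence, at chr5:24526285-24526384 with a fold of 5.93 and a −log10 p of 9.96. Otx2 marks forebrain and midbrain, across the midbrain-hindbrain border from Gbx2, and is also expressed as pluripotent cells leave the naive state. It had RXR in ESCs at chr14:48674112-48674266 (fold 6.11, −log10 p 8.77) and Nur77 in ESCs at chr14:48674038-48674164 (fold 7.67, −log10 p 11.8). These peaks coincided, 393 and 282 bp upstream of the start and over the antisense gene Otx2os1. In NCs neither remained, and a Nur77 peak with a −log10 p of 6.72 lay at another start of Otx2, at chr14:48665040-48665131. En1, which maintains midbrain and anterior hindbrain, had RXR in NCs only, in its coding sequence at chr1:120603084-120603282 (fold 6.87, −log10 p 10.5). En2 and Otx1 had no peak.

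Dlx genes direct forebrain interneurons and the jaw and lie in the genome as neighbouring pairs. The 5 in the list each had a peak in at least 1 library, beside 65.5% of all protein-coding genes. No library held more than 3 of the 5. Dlx3 had the highest −log10 p after Gbx2, at 24.4 with a fold of 9.22 and 32 fragments, in FGFR1 replicate 2 at chr11:95119966-95120326, and no peak in the other 7 libraries. Dlx1 was likewise bound by FGFR1 in replicate 2 alone, at chr2:71529573-71529795 with a fold of 8.97 and a −log10 p of 21.2, over an untranslated exon and the antisense gene Dlx1as. Within replicate 2 the Dlx3 peak was stronger than 55.2% of promoter peaks and the Dlx1 peak stronger than 47.4%. Replicate 1 had no peak at either gene. Dlx2 had coinciding peaks of RXR (fold 5.39, −log10 p 9.42) and Nur77 (fold 6.10, −log10 p 9.56) in ESCs, in coding sequence, at chr2:71546118-71546324 and chr2:71546102-71546207. Its FGFR1 peak in NCs replicate 1, at chr2:71545994-71546114, had a fold of 4.77 and a −log10 p of 6.84 and shared bases with the Nur77 peak only. Dlx5 had Nur77 in ESCs alone, at chr6:6881497-6881586 with a fold of 8.19 and a −log10 p of 13.7. Dlx6 had 4 weak peaks, of Nur77 in ESCs (−log10 p 8.04) and of Nur77 (9.91), RXR (9.30) and FGFR1 replicate 1 (7.89) in NCs. The RXR peak at Dlx6 overlapped each of the other 3, and 2 noncoding neighbours, Dlx6os1 and Dlx6os2, lie over its summit.

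Among the other forebrain and eye genes, Emx2, a cortical patterning gene, had 3 peaks in NCs within a few bases of each other and none in ESCs. FGFR1 replicate 1 lay at chr19:59459459-59459552 (fold 6.69, −log10 p 10.5), RXR at chr19:59459427-59459542 (fold 6.43, −log10 p 9.51) and Nur77 at chr19:59459464-59459686 (fold 6.88, −log10 p 10.8). Their summits were 9, 12 and 9 bp upstream of an alternative start and 1138, 1135 and 1138 bp downstream of the main start, in coding sequence. FGFR1 replicate 2 had no peak there. Emx1 and Vax1, a gene of the ventral forebrain and optic nerve, had FGFR1 peaks of replicate 1, 2 with −log10 p of 8.87 and 12.4 and 3 with 8.39, 8.12 and 12.7, and Vax1 also had Nur77 in NCs at 6.78. Six2, a gene of kidney progenitors, had FGFR1 replicate 1 only, at 8.87. Six3 and Six6, which act in forebrain and eye, had no peak.

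The LIM-homeobox genes combine a homeodomain with LIM domains that bind partner proteins. Of the 8 listed, 4 had a peak in at least 1 library, beside 65.5% of all protein-coding genes. Isl1, required for motor neurons, was the second gene with FGFR1 peaks in both NC libraries. Replicate 2 covered chr13:116309480-116309946, across the main start and with its summit 122 bp upstream of it, with a fold of 8.18 and a −log10 p of 16.3. Replicate 1 had a peak within it, at chr13:116309866-116309942 (fold 6.57, −log10 p 9.59), and 2 more at internal starts, at chr13:116303243-116303387 (fold 5.34, −log10 p 7.36) and chr13:116305323-116305459 (fold 7.44, −log10 p 11.3). Nur77 was at the internal site in both states, at chr13:116303151-116303237 in ESCs (fold 5.53, −log10 p 7.58) and chr13:116303180-116303271 in NCs (fold 5.18, −log10 p 7.02). The FGFR1 repeats thus met near the main start, while Nur77 lay 6520 and 6493 bp inside the gene, where its NC peak shared bases with a peak of FGFR1 replicate 1. Isl2, also of motor neurons, had FGFR1 replicate 1 only, at chr9:55541088-55541174 (fold 7.30, −log10 p 13.4), with the summit 14 bp upstream of its start.

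Lhx1, which acts in the head organizer and in kidney and interneurons, had 4 peaks in 2 places. RXR in ESCs at chr11:84525518-84525609 (fold 5.06, −log10 p 8.51) shared bases with FGFR1 replicate 1 at chr11:84525550-84525735 (fold 7.61, −log10 p 13.5), just upstream of the start. Nur77 at chr11:84524990-84525083 (fold 6.21, −log10 p 9.73) shared bases with H3.3 at chr11:84524991-84525110 (fold 5.61, −log10 p 7.77), both in NCs and within the untranslated exon. Lhx2, a gene of cortex, eye and hair follicle, was the only 1 of the 49 bound by RXR in both states. The ESC peak, chr2:38339649-38339730 (fold 6.56, −log10 p 10.3), and the NC peak, chr2:38339785-38339905 (fold 7.05, −log10 p 10.6), did not share bases. The NC peak coincided with FGFR1 replicate 1 at chr2:38339810-38339896 (fold 6.99, −log10 p 10.5), and H3.3 had 3 peaks at Lhx2 with −log10 p of 9.80, 7.03 and 9.99. Lhx5, Lhx9, Lmx1a and Lmx1b had no peak.

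Of the Pax genes, Pax5 and Pax8 belong with Pax2 to a subgroup that acts at the midbrain-hindbrain border and in kidney, thyroid or B cells. Pax5 was bound at 2 places within an intron and an exon over the antisense gene 5730488B01Rik. These places were near an alternative start, with summits 5994 to 6643 bp downstream of the main start. RXR in ESCs at chr4:44704420-44704543 (fold 6.71, −log10 p 11.6) contained the FGFR1 peak of replicate 1 at chr4:44704448-44704519 (fold 7.50, −log10 p 11.8). Nur77 was at the other place in both states, at chr4:44703813-44703899 in ESCs (fold 5.33, −log10 p 7.48) and chr4:44703826-44703917 in NCs (fold 6.16, −log10 p 9.06). As at Lhx1, FGFR1 and Nur77 were at the same gene but not on the same bases. Pax8 had FGFR1 replicate 1 at chr2:24474293-24474366 (fold 7.66, −log10 p 11.9) and H3.3 at chr2:24475051-24475176 (fold 7.11, −log10 p 10.8), again apart. Pax3, a gene of the dorsal neural tube, neural crest and muscle, had FGFR1 replicate 1 alone, at chr1:78197023-78197107 (fold 7.63, −log10 p 11.8). Pax2 and Pax7 had no peak.

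Among the trunk and spinal cord regulators, Cdx1, a caudal gene that acts upstream of Hox genes and is a known target of RA, had FGFR1 peaks in both NC libraries and none in ESCs. Replicate 1 gave 3 peaks, at chr18:61035669-61035765 (fold 5.30, −log10 p 7.69), chr18:61036085-61036157 (fold 5.36, −log10 p 7.78) and chr18:61036547-61036618 (fold 7.11, −log10 p 11.9). Replicate 2 had a peak at chr18:61036031-61036205 (fold 5.33, −log10 p 10.4), which covered the middle peak of replicate 1, and so did H3.3 at chr18:61036011-61036165 (fold 6.71, −log10 p 9.99). The strongest peak of replicate 1, 385 bp upstream of the start, was not repeated. Cdx2 had FGFR1 replicate 1 only, at a −log10 p of 7.22. Mnx1, of motor neurons and pancreas, had FGFR1 replicate 2 (13.3) and Nur77 in NCs (9.86) at separate sites. Cdx4, Evx1 and Evx2 had no peak.

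Of the Irx genes, which subdivide the neural plate and the heart, Irx2 had Nur77 in ESCs at chr13:72628481-72628567 (fold 5.63, −log10 p 8.20), Nur77 in NCs at chr13:72631799-72631905 (fold 6.78, −log10 p 10.7) and H3.3 in NCs at chr13:72629130-72629249 (fold 7.05, −log10 p 11.1). None of these 3 peaks shared bases. Irx3 had FGFR1 replicate 1 only, at chr8:91800991-91801076 (fold 6.09, −log10 p 9.88), 881 bp inside the gene in coding sequence that the antisense gene Irx3os overlaps. Irx1 had RXR in NCs at a −log10 p of 8.19, near an alternative start and 4144 bp downstream of the main start. Irx5 had no peak. The Msx genes, targets of BMP signals in neural crest and limb, both had FGFR1 replicate 2, Msx1 with a fold of 6.57 and Msx2 with a fold of 5.61, and the Msx2 peak coincided with RXR in ESCs (fold 5.37). Nkx2-2, of the ventral neural tube, had coinciding peaks of Nur77 in ESCs (−log10 p 9.35) and of FGFR1 replicate 1 (10.8) and RXR (7.69) in NCs, 681 to 710 bp upstream of a start and over Nkx2-2os. Nkx2-5, a heart regulator, had RXR in NCs at a −log10 p of 8.91. Phox2a, of noradrenergic neurons, had Nur77 in NCs at 8.12, and Pitx1, of pituitary and hindlimb, had 2 peaks of FGFR1 replicate 1 at 7.03 and 7.40. Nkx2-1, Nkx6-1 and Nkx6-2 had no peak.

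RXR peaks were called at largely separate homeobox genes in the 2 states, with 1 library each. Of the 7 genes bound in ESCs (Dlx2, Gbx1, Lhx1, Lhx2, Msx2, Otx2 and Pax5) only Lhx2 was among the 7 bound in NCs (Dlx6, Emx2, En1, Irx1, Lhx2, Nkx2-2 and Nkx2-5). That is 2.04% of the 49, beside 19.4% of all genes with RXR in both states. It is 14.3% of the ESC set, where 45.6% of all genes with RXR in ESCs kept a peak. Within 1 state, the 2 FGFR1 libraries in NCs shared 3 genes. These were 15.8% of the replicate 1 set and 37.5% of the replicate 2 set, beside 77.8% and 79.5% over all genes. With 1 RXR library per state, change between states and spread between libraries cannot be told apart. For Nur77, 5 of 8 genes kept a peak (Dlx6, Irx2, Isl1, Otx2 and Pax5), or 10.2% of the 49 beside 14.0% of all genes, and 62.5% of the ESC set beside 55.1%. The Nur77 peaks shared bases at Dlx6, Isl1 and Pax5 and lay at separate sites at Irx2 and Otx2. Over all genes with Nur77 in both states, 70.4% had coinciding peaks. For RXR that share was 81.4%, and the Lhx2 peaks lay apart. Fewer genes were left under stricter rules, among the 49 and among all genes. At a −log10 p of at least 10, RXR kept 2 of the 49 in each state (25.3% of all genes in ESCs and 10.9% in NCs), Nur77 kept 2 in ESCs and 3 in NCs (12.4% and 14.0%), and H3.3 kept 2 (7.17%). With equal numbers of peaks RXR had 1 gene in ESCs and 4 in NCs (16.0% and 14.5% of all genes), and Nur77 had 2 and 1 (10.9% and 9.28%).

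Where FGFR1 met the other proteins in NCs, the repeats differed. FGFR1 replicate 1 shared 4 of the 7 RXR genes (Dlx6, Emx2, Lhx2 and Nkx2-2), or 57.1%, and at all 4 the peaks shared bases. Over all genes shared by these libraries, 85.1% had coinciding peaks. Replicate 2 shared none of the 7. Over all genes with RXR in NCs, 90.9% had a peak of replicate 1 and 80.0% a peak of replicate 2. With Nur77 in NCs, replicate 1 shared 7 of 11 genes (63.6%, beside 89.2% of all Nur77 genes), with coinciding peaks at Dlx6, Emx2, Gbx2, Isl1 and Vax1. Over all genes shared there, 81.5% had coinciding peaks. Replicate 2 shared 3 of 11 (27.3% beside 78.7%), with coinciding peaks at Gbx2 alone, where over all shared genes 74.0% had coinciding peaks. H3.3 shared 4 of its 5 genes with replicate 1 (80.0% beside 94.5%) but shared bases at Cdx1 alone, where over all shared genes 87.6% had coinciding peaks. It shared 1 of its 5 genes, Cdx1, with replicate 2, beside 80.8% of all H3.3 genes, with coinciding peaks. Over all genes shared with replicate 2, 76.9% had coinciding peaks. In ESCs the RXR and Nur77 lists had Dlx2, Otx2 and Pax5 in common, with coinciding peaks at Dlx2 and Otx2. These are 42.9% of the RXR genes and 37.5% of the Nur77 genes, beside 48.8% and 81.4% over all genes, where peaks coincided at 75.8% of the shared genes. Neither list held Gbx2, the single FGFR1 gene in ESCs, whereas 84.5% of all genes with FGFR1 in ESCs had RXR and 60.9% had Nur77.

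Of the 76 peaks at the 49 genes, 44 had a −log10 p below 10 and 5 reached 15, and the fragments at a summit numbered 6 to 32. A −log10 p of at least 10 was reached by 13 of 27 peaks in FGFR1 replicate 1 and 7 of 8 in replicate 2, beside 67.6% and 90.6% of all promoter peaks. In the RXR, Nur77 and H3.3 libraries 2 or 3 peaks each reached it, of 7 to 11, beside 43.4 to 49.4% of all promoter peaks. In FGFR1 replicate 2 the 8 peaks had a median −log10 p of 14.8, beside 22.3 for all promoter peaks of that library, and 1 of the 8 was above that median. In replicate 1 the 27 peaks had a median of 9.88 beside 11.5, and 9 were above. In the RXR, Nur77 and H3.3 libraries the medians were closer to the background, from 8.78 to 9.99 for the homeobox genes and from 9.60 to 9.94 for all promoter peaks. The single member peak of FGFR1 in ESCs, at Gbx2, had 14.1 beside a median of 10.4. Below-median strength was thus most marked in FGFR1 replicate 2. Of the 76 peaks, 43 shared bases with a peak of another library, a count given without its share over all promoter peaks.

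**Figure D4:**
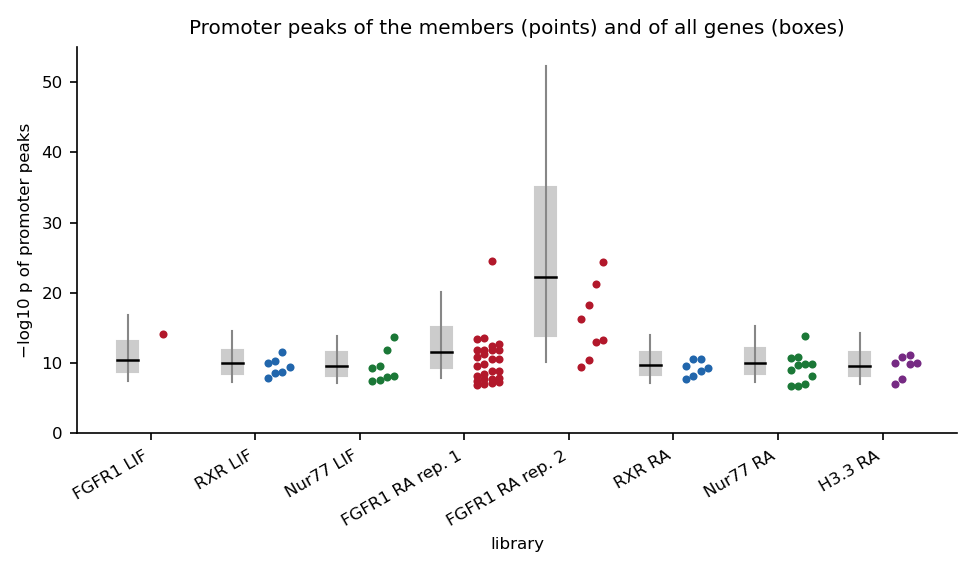
The −log10 p of each of the 76 promoter peaks at the homeobox genes (points) by library, with the quartiles (box), the median (line) and the 10th to 90th percentile (whisker) of all promoter peaks of that library beside them. The 8 points of FGFR1 RA replicate 2 lie between 9.44 and 24.4, and 1 of them is above the library's median of 22.3.

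The summits lay on both sides of the starts, 32 upstream and 44 at or downstream of the nearest one, from 710 bp upstream to 1040 bp downstream. By the gene's own transcripts, 28 summits were in coding sequence, 20 in untranslated exons, 4 in noncoding exons, 10 in introns and 14 upstream of the gene. The coding share was 36.8%, and by library it was 40.7% in FGFR1 replicate 1, 12.5% in replicate 2, 42.9% for RXR and 54.5% for Nur77 in NCs. Over all promoter peaks of these libraries it was 21.9%, 14.1%, 21.7% and 24.6%. Summits over another annotated gene numbered 25, at 11 of the homeobox genes, and the searched positions of 16 of the 49 held the start of another gene. No share over all genes is given beside these counts, so they are not read as particular to the homeobox genes. The peaks held from 59.9% to 80.8% G and C with a median of 70.3%, near the medians of 65.6 to 71.0% for all promoter peaks by library. None of the 76 held an alternating purine-pyrimidine run of at least 20 bp, which 0.932 to 7.35% of all promoter peaks did, depending on the library.

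**Figure D5:**
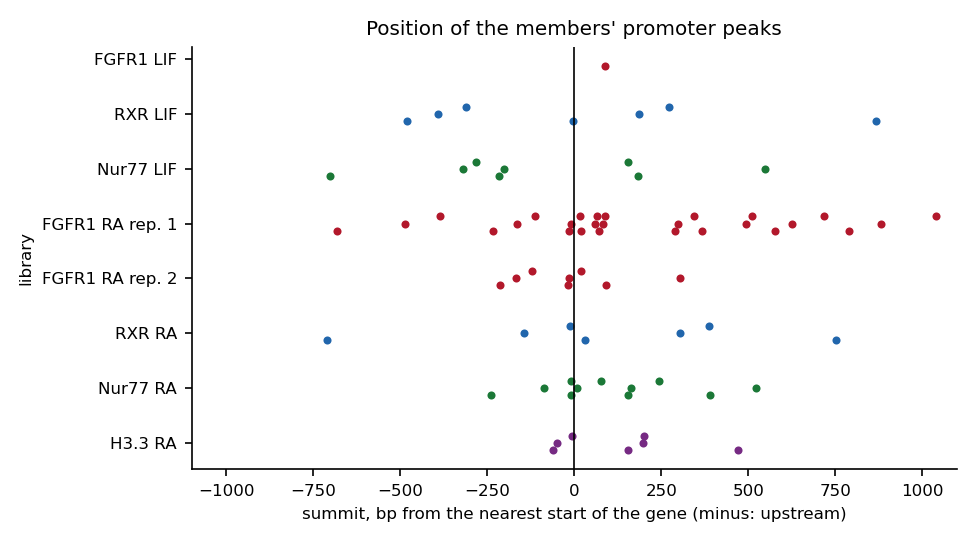
Position of each of the 76 summits in bp from the nearest start of its gene (horizontal axis, negative values upstream) by library; vertical offsets only separate points. FGFR1 RA replicate 2 stays within 214 bp upstream and 303 bp downstream, while replicate 1 reaches from 681 bp upstream to 1040 bp downstream.

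Short words known from transcription factor sites were counted on either strand in 100 bp centred on each summit, and each count is a description of letters only. AGGTCA, the half-site of nuclear receptors, was at none of the 76 summits, where 3.26 to 4.29% of all promoter peaks had it, depending on the library. TAATTA, a word of many but not all homeodomains, was at none, with 0.0387 to 0.154% of all peaks. GGGCGG, the word of Sp-type factors, was at 18 of the 76, with 24.6 to 33.0% of all peaks. CACGTG, the E-box of basic helix-loop-helix factors, was at 1 (Vax1, FGFR1 replicate 1), with 3.35 to 6.63%, and CCGGAAGT, an ETS word, was at none, with 1.10 to 2.90%. The Gbx2 stretch printed above does hold CACGTG, outside the 100 bp counted.

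Genes of the same families that are not among the 49 were counted beside them, 24 in all, together with the 39 Hox genes. FGFR1 in ESCs lay at none of the 24 and at 3 Hox genes. In NCs FGFR1 lay at 12 and 24 in replicate 1 and at 6 and 11 in replicate 2, and at 3 and 7 in both. The same-family genes had RXR at 10 in ESCs and 3 in NCs, Nur77 at 1 and 7, and H3.3 at 1. The Hox genes had RXR at 16 and 7, Nur77 at 9 and 11, and H3.3 at 4. A peak in any library was found at 18 of the 24 (75.0%) and 32 of the 39 (82.1%), both above the 65.3% of the 49, and 4 Hox genes had peaks in 5 or more libraries where the 49 had none. In replicate 2 of FGFR1 these lists stood at 25.0% and 28.2%, against 49.6% of all genes. Other libraries differed. In replicate 1 the Hox genes stood at 61.5% against 50.7%, and the same-family share lay just below that of all genes. For RXR in ESCs the same-family genes stood at 41.7%, with the Hox genes slightly lower, against 42.5%. For Nur77 in NCs the lists stood at 29.2% and 28.2%, against 25.8%. For FGFR1 and Nur77 in ESCs and for RXR and H3.3 in NCs, both lists were below all genes.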

How the data were processed

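ChIP-seq peak lists of 8 libraries in 7 groups were used, 6 groups with 1 library and FGFR1 in NCs with 2. Groups were read from the sample titles. The authors aligned reads to mm10 with Bowtie 1.0, left out reads that mapped to several places, and ran MACS2 on each library separately at a p limit of 1e-05 with no control library named. The deposited fold is the pileup at the summit plus 1 over the local background plus 1. The deposited −log10 p and −log10 q belong to the summit, and the deposited score is a rescaled −log10 p. The summit position is given as an offset from the peak start.

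Promoters were the positions within 1000 bp of the starts of 141767 GENCODE M21 transcripts (the study used UCSC known genes), and a peak had to overlap them by at least 20 bp. Peaks of different libraries coincided when they shared at least 1 bp. The number of fragments at each summit, the background and hence the depth were inferred by solving the deposited fold and −log10 p for a whole number of fragments under the Poisson tail, which succeeded for 100% of peaks within 0.002. The overlap and depth steps were tested on simulated data first. Shares refer to 21951 protein-coding genes. No p-value was computed, since 6 of 7 groups had 1 library. The members and the gene lists were chosen with earlier results of these data known. Full values were given for 19 genes: those with FGFR1 in ESCs, the 3 strongest by −log10 p for each library, those with coinciding FGFR1 peaks in both NC libraries and a further peak in NCs, and Pax3, Irx3 and Cdx1, for which the study measured RNA. Other genes have their −log10 p or fold only. Alternatives were a −log10 p of at least 10, an equal number of peaks (11378, or all where a list held fewer), windows of 500 bp, the summit inside the window, coding transcripts only, peaks without alternating runs, other rules for coinciding, and leaving out each FGFR1 library. Python 3.11.15, numpy 2.4.6, pandas 2.3.3, scipy 1.17.1, pysam 0.24.0 and matplotlib 3.10.9 were used.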

Additional observations from a re-analysis of the deposited data

How the results depend on the processing

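Of 56 counts under alternative settings, 42 stayed within 1.5 times the count reported and 14 did not. Some of the 42 could not have changed, as stated below. With an equal number of peaks per list, the mean for FGFR1 in NCs fell from 13.5 to 3.5 genes, and 1 gene had FGFR1 peaks in both NC libraries and coinciding there; RXR had 1 gene in ESCs and 4 in NCs, and Nur77 had 2 and 1. At a −log10 p of at least 10, RXR had 2 genes in ESCs and 2 in NCs, Nur77 had 2 and 3, H3.3 had 2, and 1 gene had coinciding FGFR1 peaks. Leaving out each FGFR1 library in turn gave 8 to 19 genes in NCs, 8 without replicate 1 and 19 without replicate 2. These alternatives use fewer peaks or 1 library by construction. FGFR1 in ESCs had 1 gene, Gbx2, under each setting tried. Windows of 500 bp, the summit rule and coding transcripts only moved no count by more than 1.5 times. Leaving out peaks with alternating runs could change no count, since none of the 76 peaks held one. Restriction to 11378 peaks left the lists of FGFR1 in ESCs and H3.3 whole, so their counts could not change there either. No paired analysis was possible because the groups compared share fewer than 2 replicate numbers. Depth limits the statement that a gene had no peak: a summit needed at least 4 to 8 fragments.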

Other observations

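Peaks outside the searched positions but within 10000 bp of a start were found at 13 of the 17 genes with no promoter peak (76.5%, beside 38.2% of the 7582 protein-coding genes with none): En2, Evx1, Evx2, Irx5, Lhx5, Lhx9, Lmx1a, Nkx2-1, Nkx6-1, Otx1, Pax2, Six3 and Six6. Evx2 had them in 6 libraries, Lhx9, Nkx2-1 and Pax2 in 4 each, and Lmx1a and Nkx6-1 in 1 each. Cdx4, Lmx1b, Nkx6-2 and Pax7 had none in any library.

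Over all 49 genes such peaks were found at 20 for RXR in ESCs, where 29.5% of all protein-coding genes had them, and at 28 for FGFR1 in NCs replicate 1, where 42.3% had them. FGFR1 in NCs replicate 2 had them at 7 genes beside 18.5% of all genes, and FGFR1 in ESCs at 3 (Dlx1, Dlx2 and Evx2) beside 13.7%. Nur77 had them at 15 genes in ESCs and 11 in NCs beside 24.0% and 27.2%, RXR in NCs at 7 beside 16.1%, and H3.3 at 7 beside 12.4%. Nearby genes can share such a peak, and none was assigned to a gene by anything but distance.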
